A study of Mus musculus with 6 samples.

Results

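The ADAM and ADAMTS genes of the mouse heart were taken from the count table by name. Symbols of the form Adam, Adamts or Adamtsl followed by a number matched 57 genes, and 41 of them averaged 10 counts or more in the 6 libraries. These 41 are the members: 20 ADAM, 16 ADAMTS and 5 ADAMTSL genes, of 18328 genes at that level and 45777 in the table. The other 16 matching genes had mean counts from 0 to 5.83, 6 of them were at 0 in every library, and the highest single value among them was 29 counts (Adam28 in Rh2-30 mg/kg). The rule used names and the mean level only, and it was written with earlier results of these data known.

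The mice were female BALB/c nude animals (CAnN.Cg-Foxn1nu/Crl, aged 6 weeks at the start of the experiment), and RNA was taken from their hearts. All of them carried subcutaneous tumours of MDA-MB-231, a human breast cancer line, so the Control group was tumour-bearing too. From day 7 after the tumour cells were given, 1 group received vehicle (Control) and 2 groups the ginsenoside Rh2 daily, at the lower dose (Rh2-20 mg/kg) or the higher dose (Rh2-30 mg/kg). Another group received doxorubicin, an anthracycline, at 2 mg/kg every other day to a total of 22 mg/kg (Dox). The last 2 groups were given this doxorubicin course with the lower dose of ginsenoside (Rh2-20 mg/kg + Dox) or with the higher (Rh2-30 mg/kg + Dox), all over 3 weeks. Each condition had 1 library, pooled from 5 hearts. No condition had a second library, so a test was possible only between sets of libraries that also differed in the other drug.

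ADAM proteins are membrane-bound metalloproteinases that release the outer parts of other membrane proteins, a step called shedding, and several of them have lost the catalytic site and act in adhesion. ADAMTS proteins are secreted relatives that cut matrix proteins such as versican, procollagens and fibrillin-bound proteins, and ADAMTSL proteins share their ancillary domains but lack the protease. In the heart these families are known for work in valve and septum formation, turnover of the matrix between muscle fibres and release of growth factors and Notch signals, and TIMP proteins inhibit some of them.

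The active site of the family is a stretch that binds zinc through 3 histidines, and it is shown here because it separates the members that can cut from those that cannot. In the longest coding model of each member (GENCODE M21, GRCm38), the stretch HExxHxxxxxH was found in 28 of 41 members. It was present in 12 of 12 genes classed as catalytic ADAMs and in all 16 ADAMTS genes, and in none of the 8 non-catalytic ADAMs or the 5 ADAMTSL genes. Adam1b was placed with the catalytic ADAMs because it carried the stretch, so its place in that count follows from the sequence. The eighth residue was glycine in 22 members and asparagine in 5, all of them ADAMTS proteoglycanases, and in 1 member, Adamts8, it was serine. Below, the 33 coding bases of 9 members to which the results return are given 5′ to 3′ on the coding strand, with the codons of the 3 histidines, the glutamate and the eighth residue in capitals.
Adam10: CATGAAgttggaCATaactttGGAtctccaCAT
Adam12: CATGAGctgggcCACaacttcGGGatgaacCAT
Adam19: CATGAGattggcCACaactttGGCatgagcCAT
Adamts1: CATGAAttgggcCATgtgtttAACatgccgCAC
Adamts20: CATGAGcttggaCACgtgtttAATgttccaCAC
Adamts8: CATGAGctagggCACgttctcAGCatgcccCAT
Adamts2: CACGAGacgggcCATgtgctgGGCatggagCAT
Adamts3: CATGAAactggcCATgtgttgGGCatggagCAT
Adamts17: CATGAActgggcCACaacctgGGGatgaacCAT
The site of Adam12 lay in exon 11 at chr7:133961158-133961190 (minus strand), and that of Adam19 in exon 11 at chr11:46125050-46125082 (plus strand). The other 7 ran over an exon junction: Adam10 from exon 9 to 10 (chr9:70754296-70761585, plus), Adamts1 from exon 3 to 4 (chr16:85799191-85799545, minus), Adamts20 from exon 8 to 9 (chr15:94353678-94355296, minus) and Adamts8 from exon 3 to 4 (chr9:30952721-30953378, plus). Adamts2 crossed from exon 7 to 8 (chr11:50775403-50776134, plus), Adamts3 from exon 8 to 9 (chr5:89707433-89707818, minus) and Adamts17 from exon 8 to 9 (chr7:66968898-67002473, plus). Of the 33 bases, 29 were identical between Adamts2 and Adamts3, 28 between Adam12 and Adam19, and 22 between Adamts1 and Adamts8. The site was identical over all 33 bases in Adam1a and Adam1b, neighbours 15.2 kb apart on chromosome 5, and how the counting split reads between such copies is not stated in the sources used here, so their separate values are uncertain.

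Libraries held 86164411 to 90621002 counts, and values per library below are counts scaled to library size after TMM (CPM), unless FPKM, the authors' value per transcript length, is named. Where values are listed as 3 without Dox and 3 with it, each set of 3 runs from no Rh2 to 20 and then 30 mg/kg. Checked against the tissue label, cardiomyocyte markers (Myh6, Tnnt2, Actc1, Tnni3 and Ryr2) summed to between 18012 and 24377 CPM. The libraries differed in other tissue. The 4 atrial markers (Myl7, Sln, Myl4 and Nppa) summed to 45.7 CPM in Control, 62.01 at 20 and 1662 at 30 mg/kg Rh2, and with Dox to 379 at no Rh2, 403 at 20 and 75.3 at 30 mg/kg. Nppa made up most of the sum in Control (43.3 CPM), Rh2-20 mg/kg (36.1) and Rh2-30 mg/kg + Dox (73.8). Myl7, Sln and Myl4 had 13.2, 3.62 and 9.1 CPM in Rh2-20 mg/kg, above 0.672, 0.168 and 1.54 in Control. In Rh2-30 mg/kg + Dox these genes had 0.219, 0 and 1.22 CPM, below Control. The 4 fat markers (Adipoq, Plin1, Cidec and Ucp1) summed to 136 CPM in Rh2-30 mg/kg and to between 0.288 and 14.03 in the other 5 libraries. Markers of fibroblasts summed to 1142 CPM with the higher Rh2 dose alone and 705 with that dose plus Dox, the highest and the lowest of the 6. The single genes differed in this. In Rh2-30 mg/kg + Dox, Col1a1 (69.5 CPM), Lum (62.3) and Tcf21 (2.99) lay below Control (157, 100.1 and 3.06). Pdgfra (96.4) and Dcn (473) lay above Control (87.1 and 432). In such bulk libraries, fewer cells of a type and less RNA per cell cannot be told apart.

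On the length-corrected scale the members spanned about 3 orders of magnitude, from a mean FPKM of 0.036 for Adamts4 to 33.1 for Adamts9. Adamts9, a versican-cutting proteoglycanase, had the highest mean, with an FPKM range of 26.1 to 37.7 over the libraries. Adamts10, which acts on the fibrillin microfibril, followed at 30.1 (21.2 to 35.9), and these ranges overlapped. The next were 2 widely expressed sheddases, Adam9 at 23.6 (21.5 to 25.3) and Adam15 at 22.4 (18.7 to 24.8), and then Adam10, the main sheddase of Notch receptors, at 19.3 (15.1 to 24.2). Their ranges overlapped as well. Adamts1, another versican-cutting enzyme, stood at 15.6, Adamtsl2, a matrix protein bound to fibrillin and latent TGF-beta binding protein, at 14.8, and Adamtsl5, a fibrillin-binding relative, at 13.5. Adam17, the sheddase of tumour necrosis factor, stood at 12.2, and Adamts7, which cuts cartilage oligomeric matrix protein (COMP), at 12.05. The highest non-catalytic ADAM was Adam22, a receptor for LGI proteins in nerve tissue, at 11.8, followed by Adam4 at 7.39. Adam4 lies on the same strand as Cox16, a gene of the respiratory chain whose span overlaps it, so its level is uncertain. At the low end, Adam2, Adam3, Adam5, Adam21, Adam30 and Adam32, known from testis, had mean FPKM values of 0.045 to 0.329.

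**Figure D1:**
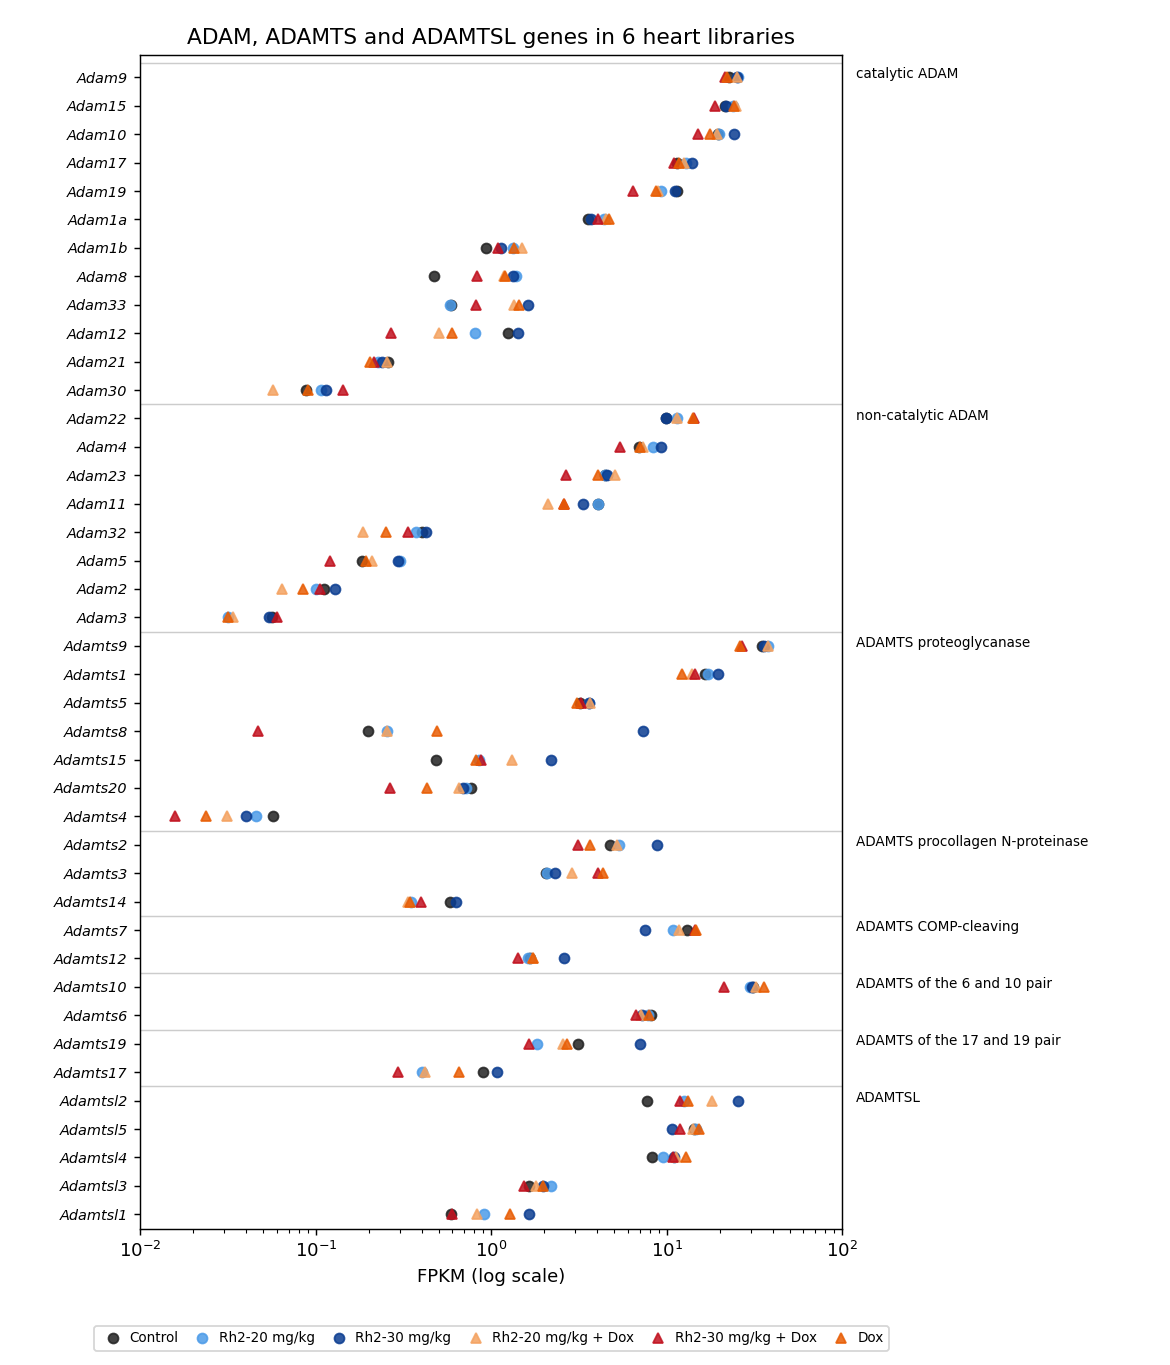
FPKM (log axis) of the 41 members, grouped by role and ordered by mean within a role; circles are the 3 libraries without Dox and triangles the 3 with Dox, 1 point per library. Most members vary little beside the distance between genes, while Adamts8 ranges from 0.0466 FPKM in Rh2-30 mg/kg + Dox to 7.30 with that Rh2 dose alone.

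By library, the most abundant members differed in how far they varied. Adam9 had 121, 130.3 and 123 CPM without Dox and 117, 129 and 117 with it, and Adam15 had 84.1, 88.4 and 76.4 CPM without Dox and 92.7, 91.95 and 73.1 with it. Neither separated the libraries by treatment. Adamts10 had 182, 164 and 161 CPM without Dox and 209.7, 176 and 127 with it, and Adamtsl5 had 66.6, 64.8 and 43.8 CPM without Dox and 69.6, 61.8 and 55.5 with it. Both were highest in Dox, with the lowest value in Rh2-30 mg/kg + Dox for Adamts10 and in Rh2-30 mg/kg for Adamtsl5. Adam4 had 24.3, 27.8 and 29.5 CPM without Dox and 24.1, 24.4 and 19.2 with it, so that it too was lowest in Rh2-30 mg/kg + Dox. Among the scarce testis genes, Adam30 had 35, 44 and 47 counts without Dox and 36, 24 and 60 with it and Adam32 had 120, 114 and 129 counts without Dox and 74, 58 and 104 with it. For both the lowest library was Rh2-20 mg/kg + Dox. Adamtsl2 (35.3 to 110.1 CPM) and Adamts7 (48.3 to 102 CPM), also among the abundant members, varied more and are described with the single libraries.

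The first comparison asked how hearts of mice given Dox differed from those of mice not given it. The 3 libraries with Dox were set against the 3 without, with edgeR's quasi-likelihood test over all 18328 genes. No member passed an adjusted p of 0.05 (Benjamini-Hochberg), the lowest being 0.216, and 5 of all genes did (0.0273%). At an unadjusted p under 0.05 there were 11 members (26.8% of 41) against 10.1% of all genes. Of these, 3 were higher with Dox (4.2% of all genes) and 8 lower (5.91% of all genes). In all, 31 members were lower with Dox and 10 higher, with a median log2 difference of -0.15 against -0.01 over all genes. Summed fibroblast markers were 705 to 1034 CPM with Dox and 779 to 1142 without, and macrophage markers 236 to 359.9 with Dox and 297 to 451 without. B cell markers did not overlap, at 1.05 to 1.90 CPM with Dox and 2.11 to 8.004 without. Their part in the members' differences was not tested. The p-values measure the spread between 3 pooled libraries that also differ in Rh2 dose. DESeq2's Wald test put 3 members (Adamts3, Adam11 and Adam12) past its adjusted threshold, among 425 genes. Without both Rh2-30 mg/kg libraries, an alternative chosen after seeing the data, 8 members had an unadjusted p under 0.05, with 4 in each direction, 23 members were lower, 18 were higher and the median was -0.02.

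Among the 3 procollagen N-proteinases, Adamts3 and Adamts2 differed in opposite directions. Adamts3 (chromosome 5, 89673841 to 89883668), which trims procollagen II and is needed for activation of the lymphatic growth factor VEGF-C, had 20.8 CPM in Control, 20.3 at 20 and 21.5 at 30 mg/kg Rh2, and with Dox 35.8 at no Rh2, 27.02 at 20 and 38.2 at 30 mg/kg. Every Dox library was above every library without it. The means were 33.7 ± 5.88 (SD, n = 3) with Dox and 20.9 ± 0.587 (SD, n = 3) without, a log2 difference of 0.69 ± 0.14 (SE; unadjusted p = 0.00146, adjusted p = 0.216). This was the lowest p among the members, and it stayed under 0.05 unadjusted in each of 13 alternative fits.

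Adamts2, the main processor of procollagens I and III, had 46.7 CPM in Control, 49.3 at 20 and 78.2 at 30 mg/kg Rh2, and with Dox 35.2 at no Rh2, 48.2 at 20 and 30.6 at 30 mg/kg. The groups overlapped, since the Rh2-20 mg/kg + Dox library lay above Control, and the highest and the lowest library were the 2 at 30 mg/kg Rh2. The log2 difference was -0.61 ± 0.24 (SE; unadjusted p = 0.0405, adjusted p = 0.470), and without both Rh2-30 mg/kg libraries it was -0.20 (unadjusted p = 0.252). Adamts2 kept an unadjusted p under 0.05 in 7 of 13 alternatives. The third enzyme, Adamts14, had 2.23 to 2.81 CPM with Dox and 2.30 to 4.08 without, which overlapped (log2 difference -0.48, unadjusted p = 0.0994).

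The catalytic ADAMs with an unadjusted p under 0.05 were Adam12 and Adam19, both of the meltrin group of membrane sheddases, and both were lower with Dox. Adam12 (chromosome 7, 133883199 to 134225097), known from muscle and mesenchymal cells in repair, had 12.9 CPM in Control, 7.94 at 20 and 13.3 at 30 mg/kg Rh2, and with Dox 6.06 at no Rh2, 4.96 at 20 and 2.80 at 30 mg/kg. The groups did not overlap, and the lowest value was in Rh2-30 mg/kg + Dox. Its mean was 4.61 ± 1.66 CPM (SD, n = 3) with Dox and 11.4 ± 2.97 (SD, n = 3) without, with a log2 difference of -1.30 ± 0.32 (SE; unadjusted p = 0.00444, adjusted p = 0.303). Without both Rh2-30 mg/kg libraries it was -0.91 (unadjusted p = 0.00847).

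Adam19 (chromosome 11, 46054502 to 46147347), which mice need for heart valve and septum formation, had 98.5 CPM in Control, 75.6 at 20 and 87.01 at 30 mg/kg Rh2, and with Dox 73.9 at no Rh2, 72.4 at 20 and 55.8 at 30 mg/kg. The groups lay close together without overlapping, the nearest being Rh2-20 mg/kg without Dox and the library with Dox alone. The log2 difference was -0.37 ± 0.15 (SE; unadjusted p = 0.0379, adjusted p = 0.459). It lost an unadjusted p under 0.05 in 5 of 13 alternatives. Adam10 did not overlap between the groups either (94.4 to 114 CPM with Dox, 117 to 136 without), at a log2 difference of -0.24 and an unadjusted p of 0.0516. The most abundant sheddases moved less, Adam9 with a log2 difference of -0.04 ± 0.08 (SE), Adam15 with 0.05 ± 0.12 (SE) and Adam17 with -0.06 ± 0.08 (SE).

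The 7 proteoglycanases had negative log2 differences in this fit, with a median of -0.34, but the sign did not hold in each pair of libraries. Adding Dox gave log2 ratios of 1.28 for Adamts8 and 0.73 for Adamts15 without Rh2, -0.0043 and 0.63 at 20 mg/kg, and -7.07 and -1.19 at 30 mg/kg. Of the 7, 3 (Adamts1, Adamts20 and Adamts4) had an unadjusted p under 0.05. Adamts1 (chromosome 16, 85793827 to 85803113) had 109 CPM in Control, 107 at 20 and 117 at 30 mg/kg Rh2, and with Dox 79.4 at no Rh2, 86.9 at 20 and 95.8 at 30 mg/kg. Every Dox library was below every other, with a log2 difference of -0.34 ± 0.10 (SE; unadjusted p = 0.00877, adjusted p = 0.340). The unadjusted p stayed under 0.05 in 13 of 13 alternatives. Its neighbour 55.0 kb away, the aggrecanase Adamts5, had 33.03 to 38.1 CPM in all libraries, and its log2 difference was -0.02 ± 0.09 (SE).

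Adamts20, the gene of the belted coat mutant, had 4.83, 5.60 and 5.37 CPM without Dox and 3.07, 4.39 and 2.95 with it. These groups did not overlap, and Rh2-20 mg/kg + Dox lay nearest to the libraries without Dox (log2 difference -0.60 ± 0.19, SE; unadjusted p = 0.0161, adjusted p = 0.376). The unadjusted p stayed under 0.05 in 10 of 13 alternatives. It did not without Dox (log2 difference -0.52), without Rh2-20 mg/kg (-0.55) or without both Rh2-30 mg/kg libraries (-0.48, unadjusted p = 0.0671). Adamts4, an aggrecanase, rested on few reads, with 41, 34 and 30 counts without Dox and 17, 24 and 12 with it. Its counts may include reads of an overlapping gene, and use of strand in the counting is not stated in the sources used here. The log2 difference of -0.97 ± 0.41 (SE; unadjusted p = 0.0480, adjusted p = 0.489) kept an unadjusted p under 0.05 in 5 of 13 alternatives. Adamts9 had 396, 407 and 370.2 CPM without Dox and 295, 404 and 305 with it, so 1 Dox library lay among those without Dox.

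Adamts17, an enzyme tied to fibrillin and to a Weill-Marchesani-like eye and stature disorder, had 7.30 CPM in Control, 3.53 at 20 and 7.98 at 30 mg/kg Rh2, and with Dox 3.32 at no Rh2, 3.59 at 20 and 2.73 at 30 mg/kg. The Rh2-20 mg/kg library lay within the Dox libraries, so the groups overlapped. The log2 difference was -0.96 ± 0.31 (SE; unadjusted p = 0.0162, adjusted p = 0.377), and -0.64 (unadjusted p = 0.0959) without both Rh2-30 mg/kg libraries. Adamts17 kept an unadjusted p under 0.05 in 8 of 13 alternatives.

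Of the members without a zinc site, Adam11 was lower and Adam22 and Adamtsl4 were higher with Dox. Adam11, a non-catalytic ADAM of nerve tissue, had 27.5, 25.9 and 20.4 CPM without Dox and 17.003, 13.7 and 17.7 with it. The groups did not overlap (log2 difference -0.61 ± 0.15, SE; unadjusted p = 0.00492, adjusted p = 0.308), and without both Rh2-30 mg/kg libraries the difference was -0.80 (adjusted p = 0.0822). Adam22 had 60.1, 64.2 and 54.1 CPM without Dox and 77.5, 67.04 and 80.2 with it, without overlap. Its log2 difference was 0.33 ± 0.11 (SE; unadjusted p = 0.0162, adjusted p = 0.377), and without both Rh2-30 mg/kg libraries it was 0.22 (unadjusted p = 0.0973). Adamtsl4, which binds fibrillin and is known from lens dislocation, had 43.03, 47.2 and 51.03 CPM without Dox and 65.3, 56.4 and 57.5 with it, again without overlap (log2 difference 0.34 ± 0.10, SE; unadjusted p = 0.0114, adjusted p = 0.3501).

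Read as order alone, the 3 Dox libraries were all above the other 3 for 3 members (7.32% of 41; 7.85% of all genes) and all below for 8 members (19.5%; 9.16% of all genes). The 8 were Adam10, Adam11, Adam12, Adam19, Adam32, Adamts1, Adamts4 and Adamts20.

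**Figure D2:**
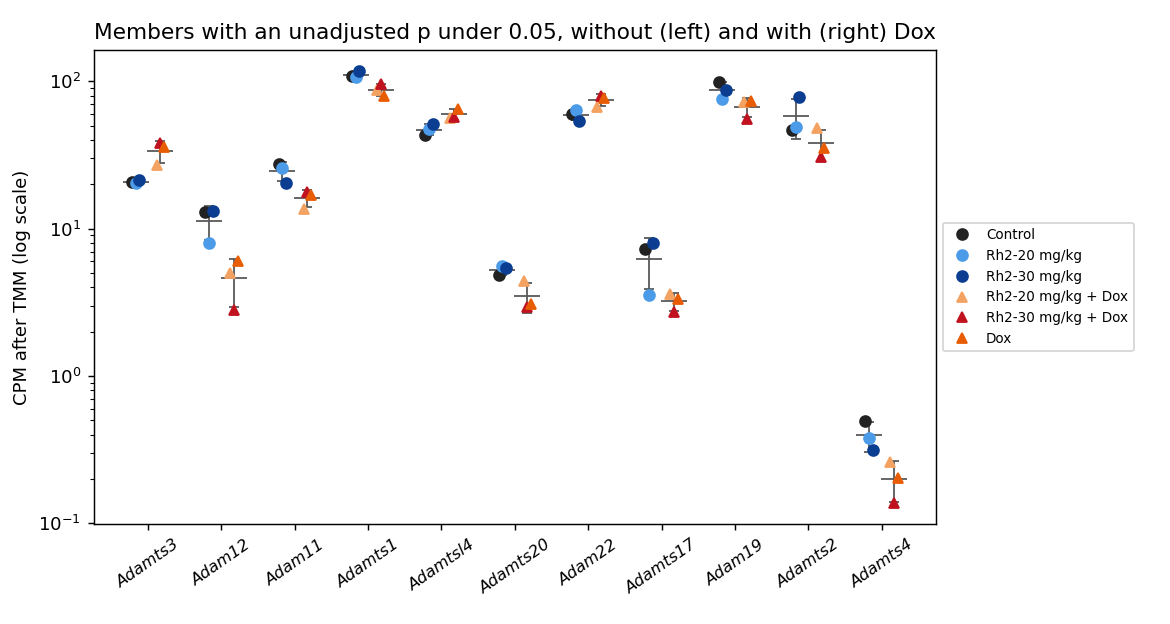
CPM (log axis) of the 11 members with an unadjusted p under 0.05 between libraries with and without Dox, 1 point per library; for each gene the left points are the 3 libraries without Dox, the right points the 3 with it, and the line and bar are the mean and SD (n = 3). Adamts3, Adamtsl4 and Adam22 lie higher on the right and the other 8 lower, and only Adamts17 and Adamts2 overlap between the sides.

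The second comparison asked whether the 4 libraries with Rh2 differed from the 2 without, with Dox as a term in edgeR's quasi-likelihood test. No gene passed an adjusted p of 0.05 (0% of 18328) by this test, while DESeq2's Wald test called 242 genes, 0 of them members. The members showed no shared direction, with 19 higher and 22 lower and a median of -0.01. At an unadjusted p under 0.05 there was 1 member (2.44%) against 8.74% of all genes (4.09% higher and 4.65% lower with Rh2). This was Adamts6, the partner of Adamts10 in fibrillin biology, with 79.0 CPM in Control and 76.9 in Dox against 71.8 at 20 and 64.5 at 30 mg/kg Rh2 without Dox and 66.2 at each dose with it. All 4 Rh2 libraries were below both others, with a log2 difference of -0.21 ± 0.08 (SE; unadjusted p = 0.0331, adjusted p = 0.568). Among fits that kept both libraries without Rh2, its unadjusted p was not under 0.05 by limma on log2(FPKM + 1) or with 30 mg/kg as the only Rh2 dose. Leaving out Control or Dox left 1 library without Rh2, so those fits cannot decide whether the difference holds. Adamts10 was also lower with Rh2 (157 ± 21.3 CPM, SD, n = 4, against 196 ± 19.7, SD, n = 2), at an unadjusted p of 0.0848.

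Single libraries were also compared with each other, without a test, to show where each treatment lay. Members are counted where they lay 2-fold or more apart, and intervals are exact 95% binomial limits that cover counting error only. Against Control, members 2-fold or more apart numbered 1 in Rh2-20 mg/kg (6.15% of all genes) and 6 in Rh2-30 mg/kg (10.1% of all genes). They numbered 5 in Dox (9.02%), 7 when the lower Rh2 dose was added to it (8.75%) and 4 when the higher was (10.9%), of 41 each. As a share of the members these were 2.44%, 14.6%, 12.2%, 17.1% and 9.76%. These 5 comparisons share the Control library. The 1 member apart in Rh2-20 mg/kg was Adamts17, which was lower (318 counts against 608, log2 ratio -1.05, interval -1.25 to -0.85).

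In Rh2-30 mg/kg all 6 members were higher than in Control, as were most genes 2-fold apart there (1555 higher, 8.48% of all genes, and 299 lower). Adamts8 (chromosome 9, 30942562 to 30963838), a proteoglycanase known from lung and heart, had 103 counts in Control, 136 at 20 and 3896 at 30 mg/kg Rh2, and with Dox 253 at no Rh2, 138 at 20 and 26 at 30 mg/kg. These were 1.24, 1.51 and 41.1 CPM without Dox and 3.01, 1.51 and 0.299 with it. The Rh2-30 mg/kg library was 33.1-fold above Control (log2 ratio 5.05, interval 4.77 to 5.35), and Rh2-30 mg/kg + Dox was below Control (log2 ratio -2.03, interval -2.73 to -1.41). An antisense gene, Gm29724, overlaps its span. The library with 3896 counts was the one with 1662 CPM of atrial and 136 CPM of fat markers, and the part these play in the value was not tested.

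Adamts15, a proteoglycanase 20.1 kb from Adamts8, was highest in Rh2-30 mg/kg as well, with 3.88, 6.47 and 15.9 CPM without Dox and 6.44, 9.995 and 6.96 with it. Here all 5 treated libraries exceeded Control. Adamtsl2 had 35.3, 56.2 and 110.1 CPM without Dox and 63.4, 78.2 and 55.2 with it, and again Control was lowest. The log2 ratios of Rh2-30 mg/kg to Control were 2.03 for Adamts15 and 1.64 for Adamtsl2, and those of Rh2-20 mg/kg + Dox to Control 1.365 and 1.15. Adamts19, a gene of the cardiac valves, had 18.7, 11.7 and 37.9 CPM without Dox and 16.4, 15.8 and 10.6 with it. Adamtsl1 had 7.21 CPM in Control and 16.2 in Rh2-30 mg/kg.

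Adam33, an ADAM of mesenchymal cells, was 2-fold or more above Control in 3 libraries, with 2.42 CPM in Control, 2.61 at 20 and 6.40 at 30 mg/kg Rh2, and with Dox 7.06 at no Rh2, 5.51 at 20 and 3.43 at 30 mg/kg. The library with both at the higher Rh2 dose lay nearer to Control. The log2 ratio of Dox to Control was 1.54 (interval 1.31 to 1.78). The 3 libraries with the higher Adam33 were those with 379 CPM or more of atrial markers, whose part was not tested.

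**Figure D3:**
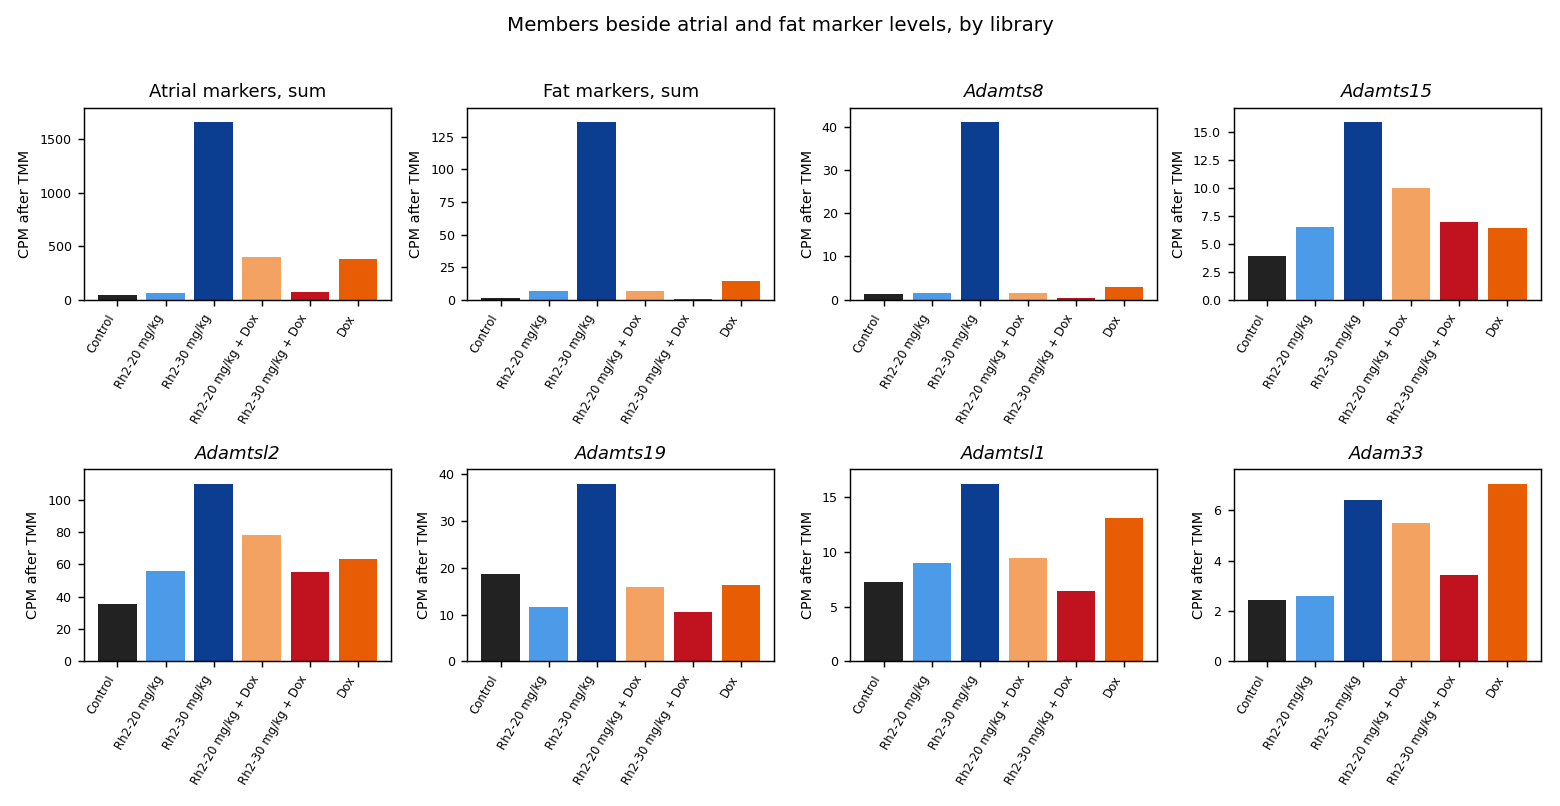
CPM of the summed atrial markers, the summed fat markers and 6 members at least 2-fold above Control in Rh2-30 mg/kg, 1 bar per library and 1 linear scale per panel. The Rh2-30 mg/kg bar is highest in every panel except that of Adam33, where Dox (7.06) exceeds it (6.40).

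With Dox present, Rh2-20 mg/kg + Dox differed from Dox alone by 2-fold or more in 0 of 41 members (6.51% of all genes). In Rh2-30 mg/kg + Dox against Dox there were 4 (9.76%; 10.1% of all genes), and all 4 were lower (7.35% of all genes were lower): Adamts8 (26 against 253 counts), Adam12 (243 against 509), Adam33 (298 against 593) and Adamtsl1 (556 against 1096). Adam12 was 2.13-fold below Control in Dox, 2.59-fold with the lower Rh2 dose added and 4.60-fold with the higher.

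The effect of adding Dox was set out at each Rh2 dose. Without Rh2 it is the comparison of Dox with Control above. At 20 mg/kg Rh2, 1 member (2.44%; 6.96% of all genes) was 2-fold apart, Adam33, which was higher with Dox (505 against 235 counts). At 30 mg/kg, 10 members were (24.4%; 14.5% of all genes), 9 of them lower. Over all genes 2225 were lower (12.1%) and 440 higher, so most genes apart in this comparison were lower too. The 9 were Adamts8, Adam12, Adamts19, Adamts17, Adamts2, Adamtsl1, Adamts15, Adamts4 and Adam5. Adamts8 had the largest ratio, 134.8-fold lower at 30 mg/kg Rh2 with Dox than without it (log2 ratio -7.07, interval -7.72 to -6.55). The member that was higher was Adamts7, a COMP-cutting enzyme of vascular walls, with 8882 against 4582 counts. It had 91.8 CPM in Control, 72.5 at 20 and 48.3 at 30 mg/kg Rh2, and with Dox 102 at no Rh2, 78.4 at 20 and 102 at 30 mg/kg. Adamts7 had its lowest value in Rh2-30 mg/kg, where the proteoglycanases Adamts8 and Adamts15 had their highest. Adamts12, the other COMP-cutting enzyme, was highest there, with 27.1 CPM against 16.7 to 19.6 elsewhere.

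A recurring order of libraries was seen over the members. For 14 of 41 (34.1%; 26.1% of all genes) the highest CPM was in Rh2-30 mg/kg, and for 10 of 41 (24.4%; 9.46% of all genes) the highest was in that library and the lowest in the one with the same Rh2 dose plus Dox. These 10 were Adam4, Adam10, Adam12, Adam17, Adamts2, Adamts8, Adamts12, Adamts17, Adamts19 and Adamtsl1. The summed markers of fibroblasts, fat, B cells (8.004 and 1.05 CPM) and mesothelium (45.7 and 21.98 CPM) had the same highest and lowest library. Summed cardiomyocyte markers had the reverse, lowest in Rh2-30 mg/kg (18012 CPM) and highest in that dose plus Dox (24377 CPM). Not every gene followed its sum. Among the cardiomyocyte genes, Myh6, Tnnt2, Actc1 and Tnni3 had the order of the sum. Ryr2 was lowest in Rh2-30 mg/kg (4839 CPM) but highest in Control (6033), with 5138 in Rh2-30 mg/kg + Dox. Of the fibroblast genes, Lum, Tcf21 and Col1a1 had the order of the sum. Pdgfra and Dcn were instead highest in Rh2-20 mg/kg + Dox and lowest in Control. No mesothelial gene was lowest in Rh2-30 mg/kg + Dox. The part of these markers in the order was not tested.

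**Figure D4:**
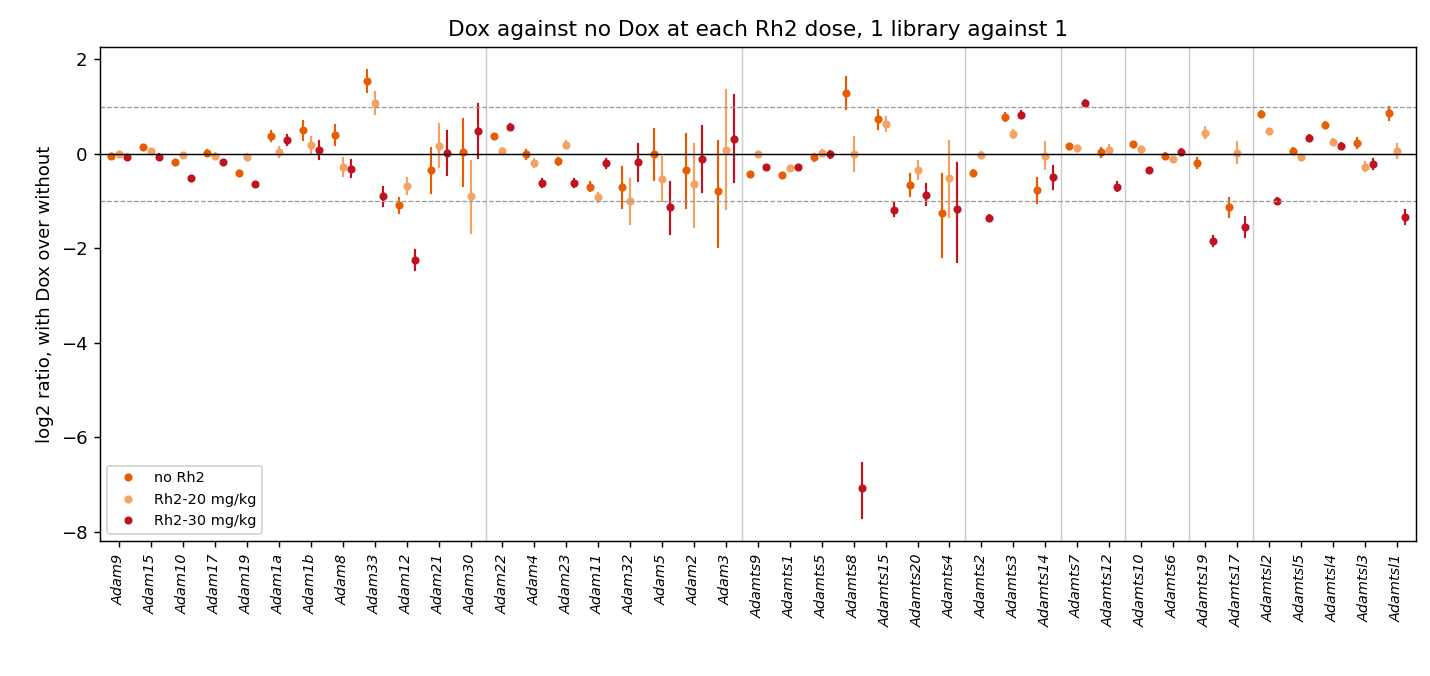
Log2 ratio of the library with Dox to the library without it, for each of the 41 members at no Rh2, 20 and 30 mg/kg Rh2; bars are exact 95% intervals of counting error and dashed lines mark 2-fold. Most points lie within 2-fold, and Adamts8 at 30 mg/kg stands at -7.07.

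Inhibitors and partners of the family were read in the same libraries. Of the TIMPs and Reck, a membrane-anchored inhibitor, 1 of 5 had an unadjusted p under 0.05 with Dox (10.1% of all genes) and the same 1 with Rh2 (8.74% of all genes). This was Timp4, the TIMP known for its heart expression, with 831 counts in Control, 2129 at 20 and 1443 at 30 mg/kg Rh2, and with Dox 1554 at no Rh2, 2606 at 20 and 4904 at 30 mg/kg. Control was lowest, and the library with 30 mg/kg Rh2 and Dox was highest. Its log2 difference was 1.081 with Dox (unadjusted p = 0.0492, adjusted p = 0.493) and 1.079 with Rh2 (unadjusted p = 0.0177, adjusted p = 0.567). Timp3, the TIMP that inhibits ADAM17 and the aggrecanases, had 8443 counts in Control and 10946 to 14707 in the other libraries (log2 difference with Dox 0.24, unadjusted p = 0.182). Timp1, Timp2 and Reck had their highest counts in Rh2-30 mg/kg (450, 7881 and 2634) and were not past an unadjusted p of 0.05 in either test.

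Among 12 measured partners of ADAM10 and ADAM17 (tetraspanins, iRhoms and others), 0 had an unadjusted p under 0.05 with Dox (10.1% of all genes) and 1 with Rh2 (8.74% of all genes). This was the iRhom gene Rhbdf1, which escorts ADAM17 to the cell surface. It was lower with Rh2 (log2 difference -0.23, unadjusted p = 0.0462, adjusted p = 0.569). Of 38 measured genes of shed proteins, 2 were lower with Dox at an unadjusted p under 0.05 (5.91% of all genes). Cdh5, the endothelial cadherin shed by ADAM10, was lower (log2 difference -0.24, unadjusted p = 0.0327, adjusted p = 0.443), as was Fcer2a, the low-affinity IgE receptor of B cells (-1.13, unadjusted p = 0.0496, adjusted p = 0.494). Fcer2a was highest in Rh2-30 mg/kg and lowest in the library with that dose plus Dox, like the summed B cell markers, whose part was not tested. With Rh2, 1 of the 38 was higher at an unadjusted p under 0.05 (4.09% of all genes) and 1 lower (4.65% of all genes). Tnfrsf1a, a tumour necrosis factor receptor, was higher (0.30, unadjusted p = 0.0163, adjusted p = 0.567) and the Notch ligand Jag1 lower (-0.33, unadjusted p = 0.00295, adjusted p = 0.567).

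Of 19 measured ADAMTS substrates, 3 had an unadjusted p under 0.05 with Dox (10.1% of all genes) and all 3 were lower (5.91% of all genes). They were Col1a1 (log2 difference -0.82, unadjusted p = 0.0444, adjusted p = 0.480) and Col3a1 (-1.20, unadjusted p = 0.0235, adjusted p = 0.415), procollagen genes whose products Adamts2 processes, and Nid2, a basement membrane gene (-0.48, unadjusted p = 0.0114, adjusted p = 0.3501). Col1a2, the other chain of procollagen I, was not among them (log2 difference -0.50, unadjusted p = 0.126). It had 208, 199 and 369 CPM without Dox and 212, 207 and 129 with it, which overlapped. Col3a1 had 36000, 39859 and 87731 counts without Dox and 22452, 34068 and 12509 with it. Its highest and lowest libraries were the same as those of Adamts2. With Rh2, 1 of the 19 had an unadjusted p under 0.05 (8.74% of all genes). This was Reln, which Adamts3 cleaves and which was higher (0.33, unadjusted p = 0.00998, adjusted p = 0.567).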

How the data were processed

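RNA of hearts in 6 pooled libraries was sequenced after SureSelect capture. The authors deposited raw read counts per gene, together with FPKM values and TPM values from StringTie 2.1.3b, after trimming with Trimmomatic and alignment to mm10 with HISAT2 2.1.0. The authors' FPKM values are per transcript length, and the deposited TPM values were not used here. Use of strand in counting is not stated in the sources used here.

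Genes with a mean count of 10 or more were scaled by TMM and tested with edgeR 4.0.16 (quasi-likelihood, two-sided, Benjamini-Hochberg over all 18328 genes) in R 4.3.3. Single libraries were compared by log2 ratios with a prior count of 0.5. The fitting step was tested on simulated data. Each SE is the log2 difference divided by the root of its F statistic. Positions are RefSeq's and zinc sites were translated from GENCODE M21, both on GRCm38; the eighth residue was left free after a search for glycine alone had missed 6 members. The alternatives were DESeq2 1.42.0, limma 3.58.1 on log2(FPKM + 1), other filters, Rh2 dose as a term, and each library left out.

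Members and lists were chosen with earlier results of these data known. Members given per library were the 2 of highest mean FPKM in each role, those with an unadjusted p under 0.05, those 2-fold from Control in at least 2 libraries, and the largest rise and fall in each comparison among members with at least 30 counts. Others were named after their values were seen. Protein sequences were not used here. The values of 1 gene of the shed substrates are not reported here.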

Additional observations from a re-analysis of the deposited data

Results flagged for a closer look

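Adamts8 moved in opposite directions with Dox at different Rh2 doses. The log2 ratio of the Dox library to Control was 1.28 without Rh2, and that of Rh2-30 mg/kg + Dox to Rh2-30 mg/kg was -7.07. Each value rests on 1 library against 1, and the difference between them was not tested.

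Each of the 41 members was also checked for a library that stands apart among the 4 with Rh2, by the gap to its nearest neighbour divided by the range of log2 CPM. The value exceeded Dixon's limit for 4 values for Adam21 (0.912, with Rh2-20 mg/kg + Dox highest) and for Adam32 (0.832, with Rh2-20 mg/kg + Dox lowest). Chance alone gives about 1 in 20 such results, and both genes had at most 129 counts in any library.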

How the results depend on the processing

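The number of genes past an adjusted p of 0.05 with Dox was 5, and it was 425 by DESeq2's Wald test, 2 with genes above 0 in every library, 103 without both Rh2-30 mg/kg libraries (chosen after seeing the data), 0 with Rh2 dose as a term, 0 by limma on log2(FPKM + 1), and 0 to 14 with a library left out in turn. Among the members DESeq2's Wald test called 3 and every other fit 0. The number of members with an unadjusted p under 0.05 was 8 to 13 over all alternatives, and the 11 named kept their direction in 13 of 13. With Rh2, 242 genes passed by DESeq2's Wald test and 23 with Rh2-20 mg/kg alone. Members with an unadjusted p under 0.05 numbered 3 by DESeq2's Wald test, 7 with Rh2-20 mg/kg alone, 0 with Rh2-30 mg/kg alone, 0 by limma, and 0 to 2 with a library left out. The cause of these differences was not tested.

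For single libraries, the members 2-fold or more from Control on log2(FPKM + 1) were 0 at 20 and 3 at 30 mg/kg Rh2 and, with Dox, 0 at no Rh2, 1 at 20 and 0 at 30 mg/kg. At a 1.5-fold limit in place of 2-fold they were 7 and 10, and with Dox 15, 13 and 15, in the same order. Rh2-20 mg/kg + Dox against Dox gave 3 at 1.5-fold. At the higher Rh2 dose the same comparison gave 0 on log2(FPKM + 1) and 9 at 1.5-fold. Adding Dox gave 0 and 7 at the lower Rh2 dose and 4 and 18 at the higher. With FPKM + 0.1, Dox against Control gave 3 and Rh2-30 mg/kg + Dox against Dox gave 1. No difference or ratio of a named member that passed its threshold changed sign. Libraries with and without Dox could be paired by Rh2 dose, and the main test with Dox did not do so. The fit with Rh2 dose as a term did, and left 0 genes past the adjusted threshold. It put 8 members past the unadjusted threshold, against 11 in the main test. The labels give no replicate numbers, so no other pairing was possible.

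Each condition was 1 pooled library, so mouse-to-mouse variation was not measured and no treatment can be told apart from its library. The libraries left out in turn gave 14 genes with Dox without Rh2-30 mg/kg + Dox, 3 without Rh2-30 mg/kg and 0 without any of the other 4. Members with few counts, Adamts4, Adam2, Adam3 and Adam30 (mean counts of 17.2 to 41.0), have wide counting intervals. Adam1a, Adam1b, Adam4, Adam8, Adam12, Adam15, Adam17, Adam19, Adamts2, Adamts4, Adamts7, Adamts8, Adamts9 and Adamtsl1 overlap or resemble other genes, and reads shared with these could not be separated.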

Other observations

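Among the 16 genes under the mean count, Adam28 had 29 counts with the higher Rh2 dose alone, 2 in Rh2-20 mg/kg + Dox and 0 in the other 4 libraries. Adamts18 had 15 and 2 counts in these libraries and 0 elsewhere. Adamts16 had 18 counts in Rh2-20 mg/kg + Dox and 0 in each of the other 5. Adamts13, the plasma enzyme that cuts von Willebrand factor, had 8 and 15 counts in the same 2 libraries, 12 in Dox and 0 in the other 3. Of the other 6 genes with a count, Adam6b had 9 counts in Control and 0 to 5 elsewhere. Adam7 had 5 counts at the lower Rh2 dose alone and 11 at the higher dose plus Dox, and Adam25 had 5 in Control and 8 at the lower dose plus Dox. Adam18 had 8 and Adam34 3 in Dox, and Adam6a had 2 at the higher dose alone. These genes were named after their values were seen and were not tested.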
